A study of Mus musculus with 8 samples.

Results

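The MHC class II genes and their regulators were described in bulk RNAseq of 2 cell populations of mouse skeletal muscle, pericytes and SMCs, separated by flow sorting. The members were 10 gene symbols, Cd74, H2-Aa, H2-Ab1, H2-Eb1, H2-DMa, H2-DMb1, H2-DMb2, H2-Oa, H2-Ob and Ciita, which take 11 of the 37979 rows of the expression table because Ciita has a second row. They were named because Cd74, H2-Aa and H2-Ab1 had been seen to go the other way from the remaining members in these libraries, so the values of the members in pericytes and SMCs are given as a description with no test. Both groups came from the hindlimb of Ai14+/-;SM22α-Cre+ mice of both sexes, 3 to 4 months old, in which Cre driven by the SM22α promoter permanently marks cells with the red fluorescent protein tdTomato. All cells were low for the dead-cell dye DAPI, negative for the endothelial surface protein CD31 and the hematopoietic surface protein CD45, and positive for the mural cell receptor PDGFRβ. The text and methods of the study leave out CD31+ cells, whereas the legend of its gating plot writes the sorted cells as CD31+. Pericytes were the PDGFRβ+tdTomato- cells and SMCs the PDGFRβ+tdTomato+ cells, with 4 libraries of each. A PDGFRβ+ cell that never expressed SM22α counts as a pericyte under this gate whatever its type, and each library pools cells from multiple sorts. No treatment was given to either group.

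MHC class II molecules are pairs of an α and a β chain that show peptides from the endosomes of a cell to CD4+ T cells. The chains are assembled with the invariant chain (the product of Cd74), which is cut down to a fragment in the endosome, and H2-DM then exchanges that fragment for peptide while H2-O restrains H2-DM. Dendritic cells, B cells and macrophages make these proteins constitutively, and many other cells do so in response to interferon-γ. CIITA, the master regulator of the pathway, does not bind DNA itself but docks on factors at the promoters of these genes. RFX and its partners sit on a sequence called the X box, and NF-Y on a sequence called the Y box that follows it.

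Of the 10 members, 7 had a promoter window in the RefSeq table of mouse assembly GRCm38.p6 (250 bases before to 50 bases after a gene's start). H2-Ab1, Cd74 and Ciita had no entry. Both strands of each window were searched for CNNGCAAC, letters within the X box, and for TGATTGG, which holds the inverted CCAAT of the Y box. The 2 motifs do not overlap each other, and their letters were chosen after the sequences had been seen. The gene strand held TGATTGG in 6 members and CNNGCAAC followed by TGATTGG 10 to 30 bases later in 4 members. Among all 32851 windows, 11.2% held CNNGCAAC, 7.82% held TGATTGG and 0.0791% held the pair. The sequences below are shown because a member listed at 0 in every pericyte library, H2-Aa, carried the same pair of motifs as H2-Eb1, H2-Oa and H2-Ob, which were higher in every pericyte library. All are on chromosome 17 and written 5′ to 3′ on the gene strand, with the motif letters in capitals.
H2-Oa (chr17:34092294-34092346, plus strand): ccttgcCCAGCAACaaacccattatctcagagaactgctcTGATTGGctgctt
H2-Ob (chr17:34238809-34238858, plus strand): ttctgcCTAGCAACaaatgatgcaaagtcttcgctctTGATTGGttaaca
H2-Eb1 (chr17:34305767-34305818, plus strand): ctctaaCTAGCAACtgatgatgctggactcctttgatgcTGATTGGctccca
H2-Aa (chr17:34287861-34287913, minus strand): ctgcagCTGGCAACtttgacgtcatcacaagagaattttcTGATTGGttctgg
H2-DMb1 (chr17:34153089-34153140, plus strand): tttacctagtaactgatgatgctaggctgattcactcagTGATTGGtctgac
H2-DMb2 (chr17:34145118-34145169, plus strand): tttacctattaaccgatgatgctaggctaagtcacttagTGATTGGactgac
H2-Eb2 (chr17:34325534-34325585, plus strand): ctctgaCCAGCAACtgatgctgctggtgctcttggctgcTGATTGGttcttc
The spacing between the 2 motifs was 26 bases in H2-Oa and H2-Aa, 25 in H2-Eb1 and 23 in H2-Ob. H2-Eb2, a class II β chain gene that is not a member and is described with the pathway genes, had the same spacing of 25 bases as H2-Eb1. TGATTGG began 45 bases before the start of H2-Oa, 50 before that of H2-Aa, 59 before that of H2-Ob, 61 before that of H2-Eb1, 63 before that of H2-DMb1 and 92 before that of H2-DMb2. The H2-DMa windows held neither motif on the gene strand, and 1 of them held CNNGCAAC on the opposite strand. A match to these letters describes the sequence only.

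Before the members were compared, the labels of the libraries were checked against markers. The values are FPKM, fragments scaled to transcript length and to the mapped reads of the library, which summed to between 690247 and 1190435 per pericyte library and between 656405 and 737839 per SMC library, with pericyte library 2 the highest. The number of reads behind a value is unknown. Summed over 10 pericyte markers, the pericyte libraries held 64.6 to 151 FPKM and the SMC libraries 189 to 513 FPKM. None of the 10 was higher in every pericyte library, 3 were higher in every SMC library and 7 overlapped. Pdgfrb, the gene of the sorted receptor, overlapped at 3.21 to 17.6 FPKM in pericytes and 15.6 to 91.5 FPKM in SMCs. The most abundant were Vtn, at 20.4 to 35.3 FPKM in pericytes and 62.2 to 96.2 FPKM in SMCs, and Ndufa4l2, at 10.9 to 24.5 FPKM and 38.4 to 86.1 FPKM. Summed over 8 smooth muscle markers, the libraries held 591 to 1892 FPKM in pericytes and 1775 to 5713 FPKM in SMCs, and the groups overlapped for all 8, Acta2 (330 to 1258 FPKM and 1158 to 3291 FPKM) and Tagln (165 to 551 FPKM and 500 to 1569 FPKM) being the most abundant. The defining markers of both labels were thus present in every library. The pericyte marker sum went against a pericyte enrichment of the PDGFRβ+tdTomato- libraries, so "pericyte" and "SMC" below name the gates.

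For 7 of the members, H2-Eb1, H2-DMa, H2-DMb1, H2-DMb2, H2-Oa, H2-Ob and Ciita, every pericyte library was above every SMC library (12.1% of the 27414 genes tested did the same). For the other 3, Cd74, H2-Aa and H2-Ab1, all SMC libraries were above all pericyte libraries (12.5% of genes tested), and all 3 were listed at exactly 0 in all 4 pericyte libraries. The members were chosen on these values, so nothing is read from the counts. On the scale of log2(FPKM + 1), which understates differences of genes with low FPKM, the median difference between group means over the 7 members with values in both groups was 3.42, with a range of 1.70 to 5.17, against a median of 0.02 over all genes tested. In bulk samples, fewer cells of a type and less RNA per cell cannot be told apart.

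**Figure D1:**
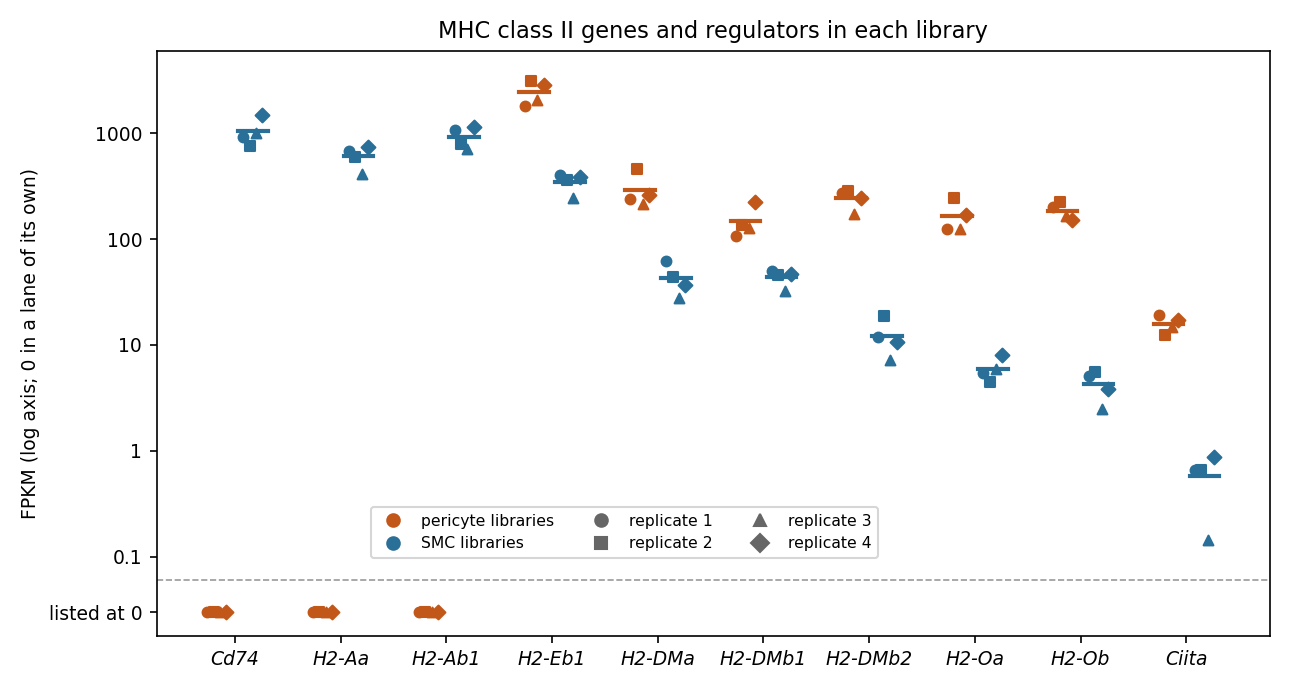
FPKM of the 10 members (log axis, with values of exactly 0 in a lane of their own below the dashed line) in the 4 pericyte libraries (orange) and 4 SMC libraries (blue), with a bar at the mean of a group whose values were all above 0. Cd74, H2-Aa and H2-Ab1 sit in the lane of zeros in every pericyte library and at 414 to 1478 FPKM in SMCs, whereas the pericyte points of the other 7 genes all lie above the SMC points.

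Cd74 encodes the invariant chain, the chaperone that blocks the peptide groove of new class II dimers. It was listed at 0 in pericyte libraries 1, 2, 3 and 4 and had 926, 750, 1007 and 1478 FPKM in SMC libraries 1 to 4 (1040 ± 311, SD, n = 4). It was the highest of the members in SMCs by its mean, and SMC library 4 held the most.

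H2-Ab1 encodes the β chain and H2-Aa the α chain of the I-A molecule, one of the classical class II molecules of the mouse. H2-Ab1 was listed at 0 in all 4 pericyte libraries and had 1065, 792, 713 and 1137 FPKM in SMC libraries 1 to 4 (927 ± 206, SD, n = 4). H2-Aa was also listed at 0 in all 4 pericyte libraries and had 676, 597, 414 and 732 FPKM in SMC libraries 1 to 4 (605 ± 139, SD, n = 4). In both genes SMC library 4 was the highest and SMC library 3 the lowest. H2-Ab1 exceeded H2-Aa within every SMC library, by 1.33 to 1.72 times.

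An exact 0 in these values need not mean that no RNA was there. Ubb, a ubiquitin gene that every cell uses, was also listed at 0 in all 8 libraries. For this reason Cd74, H2-Aa and H2-Ab1 are given as listed, with no fold change.

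Among the genes tested, 1534 were at 0 throughout the pericyte libraries, and 63 of these were above 0 in every SMC library. Cd74, H2-Aa and H2-Ab1 were the 3 of them that reached 100 FPKM in every SMC library. The next gene of this kind reached 4.04 FPKM in its lowest SMC library. At the level of these genes in SMCs, 238 genes had 400 FPKM or more in every SMC library, and Cd74, H2-Aa and H2-Ab1 were among them.

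In the other direction, 2357 genes were at 0 throughout the SMC libraries, 93 of them were above 0 in every pericyte library, and 2 of these reached 100 FPKM in every pericyte library. Dcn, which encodes the matrix proteoglycan decorin, had 1165, 1115, 509 and 571 FPKM in pericyte libraries 1 to 4. Gsn, which encodes the actin-severing protein gelsolin, had 850, 406, 750 and 1143 FPKM there. Thus 5 genes in all were listed at 0 throughout 1 group and stood at 100 FPKM or more throughout the other, and 3 of them were members. Those 3 had been noted beforehand for their pattern in these same libraries, so nothing is read from their share of the 5.

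**Figure D2:**
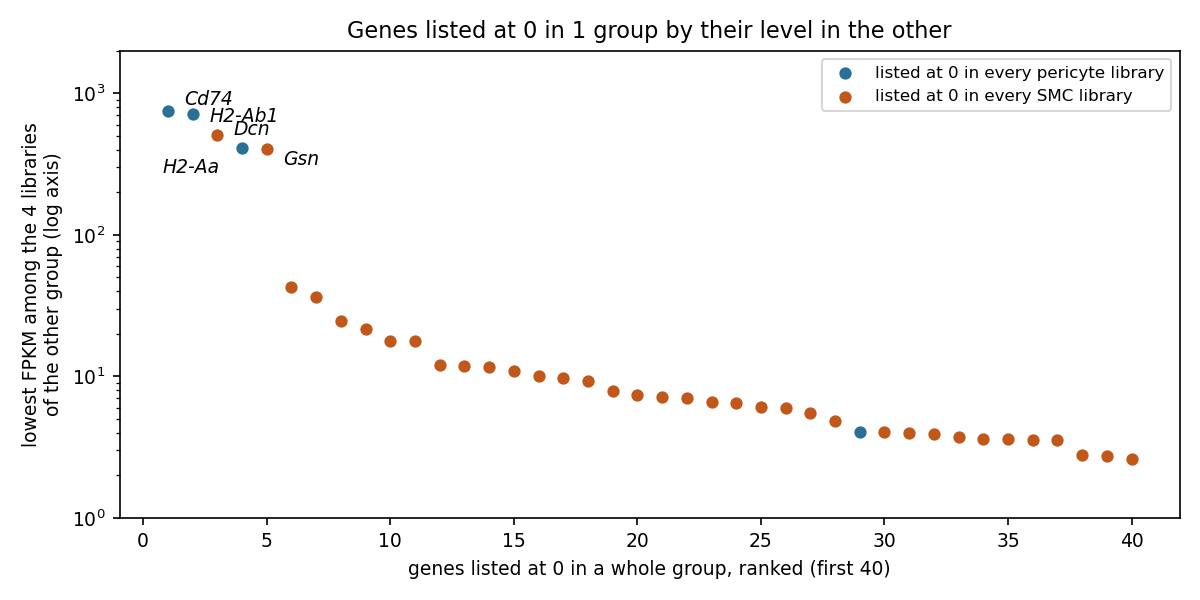
The 40 genes with the highest minimum FPKM in 1 group (log axis) among those listed at 0 in every library of the other group, ranked, with genes listed at 0 in pericytes in blue and in SMCs in orange. Cd74, H2-Ab1, Dcn, H2-Aa and Gsn have minima of 406 FPKM or more, and no other gene reaches 100 FPKM.

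H2-Eb1 encodes the β chain of I-E, the other classical class II molecule. It had 1793, 3111, 2046 and 2866 FPKM in pericyte libraries 1 to 4 (2454 ± 634, SD, n = 4) and 403, 362, 242 and 388 FPKM in SMC libraries 1 to 4 (349 ± 72.9, SD, n = 4). The lowest pericyte library was far above the highest SMC library. The ratio of the means was 7.04, and the difference on the log2(FPKM + 1) scale was 2.80 ± 0.25 (SE). Among the 7 members with values in pericytes, H2-Eb1 had the highest mean FPKM. The same libraries listed both I-A chains and the invariant chain at 0. In SMCs all 4 genes had 242 FPKM or more in every library, with Cd74 at 2.07 to 4.16 times H2-Eb1 and H2-Ab1 at 2.19 to 2.94 times H2-Eb1 within a library. All of these are RNA levels, and whether I-E or I-A protein was made in either group was not tested.

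The genes of H2-DM, the peptide exchanger, are H2-DMa for the α chain and H2-DMb1 and H2-DMb2 for alternative β chains. H2-DMa had 239, 455, 214 and 262 FPKM in pericyte libraries 1 to 4 (293 ± 110, SD, n = 4) and 61.7, 44.0, 27.7 and 36.97 FPKM in SMC libraries 1 to 4 (42.6 ± 14.4, SD, n = 4). Pericyte library 2 stood highest, and the groups did not overlap. The ratio of the means was 6.87 and the log2 difference 2.74 ± 0.34 (SE).

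H2-DMb1 had 106, 136, 126 and 226 FPKM in pericyte libraries 1 to 4 (149 ± 53.2, SD, n = 4) and 49.8, 45.9, 32.6 and 46.7 FPKM in SMC libraries 1 to 4 (43.8 ± 7.60, SD, n = 4). The groups did not overlap, and pericyte library 4 was the highest. With a ratio of means of 3.40 and a log2 difference of 1.70 ± 0.27 (SE), this was the smallest difference among the 7 members.

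H2-DMb2 had 273, 283, 172 and 247 FPKM in pericyte libraries 1 to 4 (244 ± 49.97, SD, n = 4) and 11.8, 18.6, 7.24 and 10.7 FPKM in SMC libraries 1 to 4 (12.1 ± 4.77, SD, n = 4). All pericyte libraries were above all SMC libraries, with a ratio of means of 20.1 and a log2 difference of 4.27 ± 0.30 (SE). The 2 β chain genes are close copies. Of the 50-base words in their protein-coding transcripts, 27.1% of those of H2-DMb1 also occur in H2-DMb2, and 24.6% of those of H2-DMb2 also occur in H2-DMb1, so reads from the shared stretches could be assigned to either gene and the split between them is uncertain.

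Within a library, H2-DMb2 was 2.58, 2.08, 1.36 and 1.09 times H2-DMb1 in pericyte libraries 1 to 4 and 0.237, 0.406, 0.222 and 0.230 times H2-DMb1 in SMC libraries 1 to 4. The order of the 2 β chain genes was thus opposite in the 2 groups, in every library. H2-DMa over the sum of both β chain genes was 0.554 to 1.09 in pericytes and 0.644 to 1.0005 in SMCs, and these ranges overlapped.

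H2-Oa and H2-Ob encode the α and β chains of H2-O, the restraint on H2-DM, which is best known from B cells. H2-Oa had 124, 244, 126 and 170 FPKM in pericyte libraries 1 to 4 (166 ± 56.2, SD, n = 4) and 5.45, 4.44, 5.89 and 8.003 FPKM in SMC libraries 1 to 4 (5.95 ± 1.498, SD, n = 4). The groups were wide apart, with a ratio of means of 27.9 and a log2 difference of 4.55 ± 0.27 (SE).

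H2-Ob had 201, 224, 166 and 151 FPKM in pericyte libraries 1 to 4 (186 ± 33.1, SD, n = 4) and 5.11, 5.62, 2.50 and 3.82 FPKM in SMC libraries 1 to 4 (4.26 ± 1.40, SD, n = 4). Its ratio of means of 43.6 and log2 difference of 5.17 ± 0.24 (SE) were the largest among the 7 members. The balance between the exchanger and its restraint also stood apart, since H2-DMa was 1.54 to 1.93 times H2-Oa in the pericyte libraries and 4.62 to 11.3 times H2-Oa in the SMC libraries. H2-Oa over H2-Ob overlapped between the groups, at 0.616 to 1.12 in pericytes and 0.791 to 2.36 in SMCs.

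Ciita encodes the class II transactivator. It had 19.1, 12.5, 14.7 and 17.2 FPKM in pericyte libraries 1 to 4 (15.9 ± 2.88, SD, n = 4) and 0.663, 0.664, 0.145 and 0.867 FPKM in SMC libraries 1 to 4 (0.585 ± 0.309, SD, n = 4). The regulator was thus under 1 FPKM in every SMC library, the group in which Cd74, H2-Aa and H2-Ab1 were high, and above 12 FPKM in every pericyte library, the group in which they were listed at 0. The ratio of means was 27.2 and the log2 difference 3.42 ± 0.20 (SE). For each FPKM of Ciita there were 93.8 to 249 FPKM of H2-Eb1 in pericyte libraries, against 447 to 1669.5 in SMC libraries. The second row under the Ciita symbol (ENSMUSG00000075404), a short gene model inside Ciita with no shared exon bases, had 0.0303, 0.0338, 0.262 and 0 FPKM in pericyte libraries 1 to 4 and was listed at 0 in all SMC libraries.

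**Figure D3:**
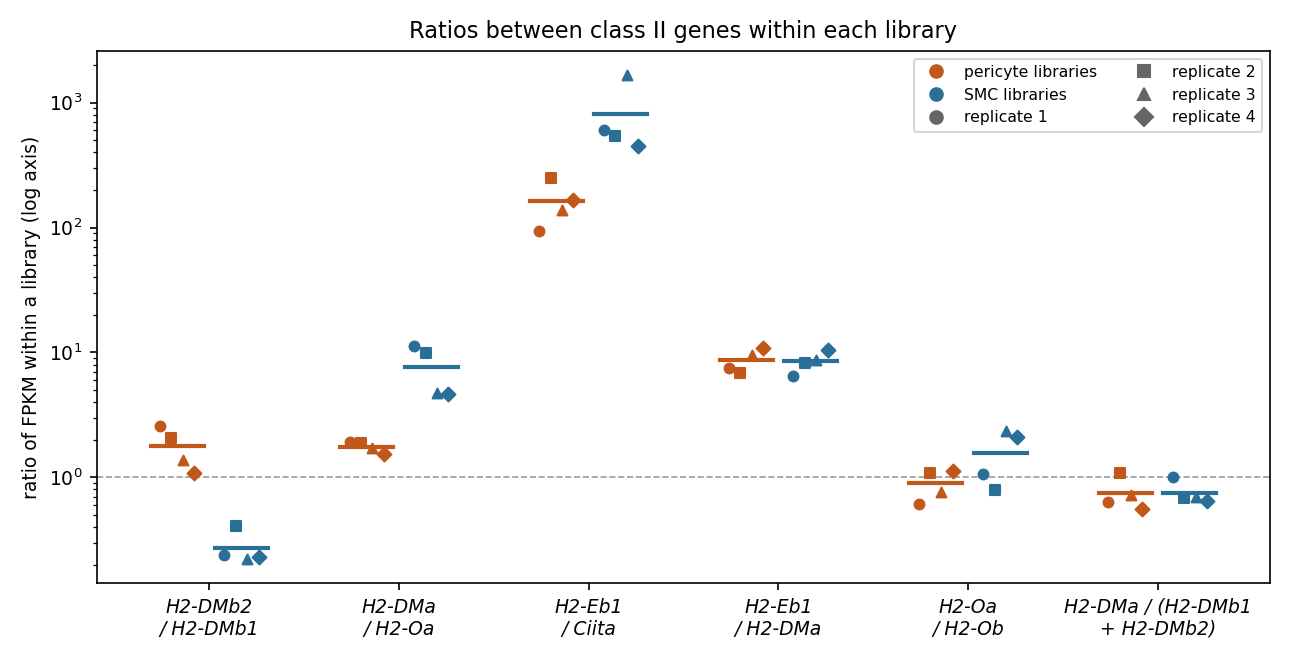
Ratios of FPKM between members within each library (log axis), pericyte libraries in orange and SMC libraries in blue, with a bar at the group mean and a dashed line at equal levels. The first 3 ratios do not overlap between the groups, with H2-DMb2 over H2-DMb1 above 1 in every pericyte library and below 0.41 in every SMC library, whereas the last 3 ratios overlap.

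FPKM are per length of transcript, so levels can be ordered between members. In pericytes the order of mean FPKM was H2-Eb1, H2-DMa, H2-DMb2, H2-Ob, H2-Oa, H2-DMb1 and Ciita. H2-Eb1 did not overlap H2-DMa, and H2-DMb1 did not overlap Ciita, but the ranges of all neighbours between them overlapped. Within a library, H2-DMb2 was above H2-Ob in 4 of 4 pericyte libraries and H2-DMa above H2-DMb2 in 3 of 4, whereas H2-Ob was above H2-Oa, and H2-Oa above H2-DMb1, in 2 of 4. In SMCs the order was Cd74, H2-Ab1, H2-Aa, H2-Eb1, H2-DMb1, H2-DMa, H2-DMb2, H2-Oa, H2-Ob and Ciita. There the ranges did not overlap between H2-Aa and H2-Eb1, between H2-Eb1 and H2-DMb1, between H2-DMa and H2-DMb2, and between H2-Ob and Ciita.

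Pericyte library 2 was the highest pericyte library for 5 of the 7 members with values in both groups, and the summed FPKM of that library was also the highest. After the libraries were rescaled to a common sum, it was the highest for 1 of the 7. Without this library, the median log2 difference over the 7 members was 3.52. SMC library 3 was the lowest SMC library for 8 of the 10 members, and the separation of the groups held for all 10 after rescaling.

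Cd74 lies on chromosome 18, Ciita on chromosome 16 (chr16:10480237-10527657, plus strand, NCBI Build 37), and the other 8 members in the class II region of chromosome 17, between the start of H2-Oa and the end of H2-Eb1 (chr17:34229285-34453144, NCBI Build 37, the build the reads were aligned to). The region held 19 annotated genes of the expression table, 8 members and 11 others. H2-Ab1 (chr17:34400154-34406363, plus strand) and H2-Aa (chr17:34406276-34424772, minus strand) are adjacent and their ends overlap by 88 bases, 17 of them exonic in both. Whether reads were assigned by strand is not given in the sources used here. The nearest members to this pair, H2-Ob (chr17:34375848-34390850) on one side and H2-Eb1 (chr17:34442828-34453144) on the other, both had every pericyte library above every SMC library.

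Of the 11 other genes in the region, 5 records had every pericyte library above every SMC library (12.1% of all genes tested), none had the reverse (12.5% of all genes tested), and none was listed at 0 throughout 1 group only. These 5 include a pair of overlapping Psmb9 records and Gm20513, whose groups were parted by 0.414 against 0.412 FPKM. Within this region, listing at 0 in pericytes and not in SMCs was thus found at H2-Ab1 and H2-Aa, while 1 other gene was listed at 0 in all 8 libraries. Psmb8, an immunoproteasome subunit of the class I pathway that lies between H2-DMb1 and H2-Ob, was named after its values were seen. It had 421, 742, 434 and 433 FPKM in pericyte libraries 1 to 4 and 143, 157, 135 and 161 FPKM in SMC libraries 1 to 4.

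Genes of the pathway outside the members were tested with limma. Their lists were drawn up with earlier results of these libraries known, so the counts are not independent evidence of a direction. Of 42 listed symbols in 5 lists, 37 were found in the expression table. By limma with Benjamini-Hochberg adjustment over all 27414 genes, 3 of the 37 were called higher in pericytes, which needed a q value below 0.05 and a log2 fold change over 2, where 3.24% of all genes tested were. None was called higher in SMCs, where 2.66% of all genes tested were. At an unadjusted limma p below 0.05, 19 of the 37 were higher in pericytes and 7 in SMCs. No share of all genes is given for that threshold, so nothing is read from these counts. With a q value below 0.05 at any fold change, 12 were higher in pericytes and 6 in SMCs, beside 10.6% and 11.2% of all genes tested. Over all genes, 888 were called higher in pericytes and 728 in SMCs, so 55.0% of the calls were in pericytes, but 44.6% once all libraries had been brought to a common sum.

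H2-Eb2, the class II β chain gene whose promoter window is shown above, was called higher in pericytes. It had 5.21, 5.51, 7.46 and 7.63 FPKM in pericyte libraries 1 to 4 and 0.247, 0.424, 0.0202 and 0.543 FPKM in SMC libraries 1 to 4. The groups did not overlap, with a log2 fold change of 2.51 ± 0.17 (SE) and a limma q value of 9.5e-05 (Benjamini-Hochberg). With a pseudocount of 0.1 FPKM the log2 fold change was 4.23. Its level was far below that of H2-Eb1 in both groups. H2-Ea-ps, the other gene of that list in the table, had at most 0.212 FPKM in any library (limma log2 fold change 0.14, q = 0.385, Benjamini-Hochberg).

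The list of class II transcription held 17 genes in the table. By limma q value at any fold change, 7 were higher in pericytes and 1 in SMCs, and the median log2 difference was 0.54. Irf4, a lymphocyte and dendritic cell transcription factor, was the one called. It had 20.9, 12.7, 19.5 and 16.7 FPKM in pericyte libraries 1 to 4 and 1.49, 1.53, 0.983 and 0.830 FPKM in SMC libraries 1 to 4. All pericyte libraries were above all SMC libraries, with a log2 fold change of 3.05 ± 0.18 (SE) and a limma q value of 5.5e-05 (Benjamini-Hochberg).

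Among the genes of this list that were not called, the largest differences were those of Ifngr1, Irf8 and Pax5. Ifngr1, the ligand-binding chain of the interferon-γ receptor, averaged 684 ± 102 FPKM in pericytes against 232 ± 70.0 FPKM in SMCs (SD, n = 4 each), with a log2 fold change of 1.60 and a limma q value of 0.00245 (Benjamini-Hochberg). Pax5, the B cell identity factor, had 1.35 to 2.13 FPKM in pericytes and at most 0.0698 FPKM in SMCs (log2 fold change 1.41, limma q = 8.9e-05, Benjamini-Hochberg). With a pseudocount of 0.1 FPKM its log2 fold change was 3.74, and it was called. Irf8, a factor of myeloid and B cells, overlapped between the groups (log2 fold change 1.52, limma q = 0.0515, Benjamini-Hochberg).

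Of the factors that CIITA docks on, none was called. Creb1 averaged 20.9 ± 2.96 FPKM in pericytes against 13.1 ± 3.16 FPKM in SMCs (SD, n = 4 each), without overlap (log2 fold change 0.65, limma q = 0.0336, Benjamini-Hochberg), which is under the fold threshold. The q value was 0.05 or more in 10 of 14 alternatives (limma q = 0.0136 to 0.314, Benjamini-Hochberg). Rfx5, the DNA-binding subunit of RFX, averaged 3.42 ± 1.503 FPKM in pericytes against 3.82 ± 1.18 FPKM in SMCs (SD, n = 4 each) (log2 fold change -0.17, limma q = 0.783, Benjamini-Hochberg). Its partners Rfxap and Rfxank had limma q values of 0.816 and 0.151 (Benjamini-Hochberg), and Nfya, Nfyb and Nfyc, the subunits of NF-Y, had limma q values of 0.0732, 0.814 and 0.270 (Benjamini-Hochberg). In 2 of 14 alternatives that of Nfya was below 0.05, over a range of 0.0141 to 0.219 (limma, Benjamini-Hochberg). These 7 genes were named for their role after their values were seen, as was Irf1. Irf1, an interferon-induced activator of Ciita, went opposite to Ciita, with 294 ± 41.5 FPKM in pericytes against 737 ± 53.8 FPKM in SMCs (SD, n = 4 each) (log2 fold change -1.33, limma q = 3.0e-04, Benjamini-Hochberg).

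The list of invariant chain and antigen processing held 9 genes in the table, the proteases that cut the invariant chain and antigens in the endosome and their inhibitor among them. None was called. By limma q value at any fold change, 2 were higher in pericytes and 5 in SMCs, and the median log2 difference was -0.61. Ctss, cathepsin S, which makes the last cuts of the invariant chain in B cells and dendritic cells, had 286, 391, 335 and 401 FPKM in pericyte libraries 1 to 4 and 95.3, 105, 104 and 168 FPKM in SMC libraries 1 to 4 (log2 fold change 1.60, limma q = 0.00144, Benjamini-Hochberg). Ctsl, cathepsin L, which takes that role in the cortical epithelium of the thymus, had 147, 152, 132 and 142 FPKM in pericyte libraries 1 to 4 and 698, 618, 414 and 428 FPKM in SMC libraries 1 to 4 (log2 fold change -1.87, limma q = 4.5e-04, Benjamini-Hochberg). The 2 cathepsins thus went in opposite directions, each without overlap between the groups. Cst3, cystatin C, an inhibitor of these proteases, averaged 2176 ± 836 FPKM in pericytes against 6227 ± 785 FPKM in SMCs (SD, n = 4 each) (log2 fold change -1.59, limma q = 0.00631, Benjamini-Hochberg). Rescaled to a common sum, Ctsl passed the fold threshold as higher in SMCs.

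Class II molecules leave the cell surface when the ubiquitin ligases MARCH1 and MARCH8 tag them, and CD83 opposes MARCH1. None of the 3 genes of this list was called. Cd83 had 406, 513, 613 and 704 FPKM in pericyte libraries 1 to 4 and 149, 165, 140 and 211 FPKM in SMC libraries 1 to 4, without overlap (log2 fold change 1.73, limma q = 0.00101, Benjamini-Hochberg). March1 averaged 1.505 ± 0.787 FPKM in pericytes against 0.529 ± 0.118 FPKM in SMCs (SD, n = 4 each) (log2 fold change 0.67, limma q = 0.0578, Benjamini-Hochberg). March8 overlapped between the groups (log2 fold change -0.85, limma q = 0.134, Benjamini-Hochberg).

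The last list held 6 genes for proteins that bind class II molecules or CD74, all in the table, and 1 was called. Cxcr4, a chemokine receptor that can pair with CD74, had 30.7, 47.4, 27.1 and 17.7 FPKM in pericyte libraries 1 to 4 and 8.02, 7.64, 1.61 and 2.16 FPKM in SMC libraries 1 to 4. The groups did not overlap, with a log2 fold change of 2.57 ± 0.50 (SE) and a limma q value of 0.00998 (Benjamini-Hochberg). Mif, a cytokine for which CD74 is a receptor, had 681, 1904, 587 and 646 FPKM in pericyte libraries 1 to 4 and 317 to 449 FPKM in SMCs (log2 fold change 1.19, limma q = 0.0657, Benjamini-Hochberg). Cd4, the T cell coreceptor for class II, had 26.3, 11.2, 40.8 and 43.5 FPKM in pericyte libraries 1 to 4 and 0.634, 0.914, 5.09 and 20.2 FPKM in SMC libraries 1 to 4. SMC library 4 overlapped the pericyte libraries, and Cd4 had a log2 fold change of 2.65 with a limma q value of 0.0747 (Benjamini-Hochberg), over a range of 0.0148 to 0.167 in 14 alternatives. It was called in 3 of them, without SMC library 4 (log2 fold change 3.39, limma q = 0.0148, Benjamini-Hochberg) and, with all libraries kept, with the filter on low values (q = 0.0178) and the replicate block (q = 0.0317). Lag3, an inhibitory receptor for class II, had a log2 fold change of 0.82 and a limma q value of 0.143 (Benjamini-Hochberg).

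**Figure D4:**
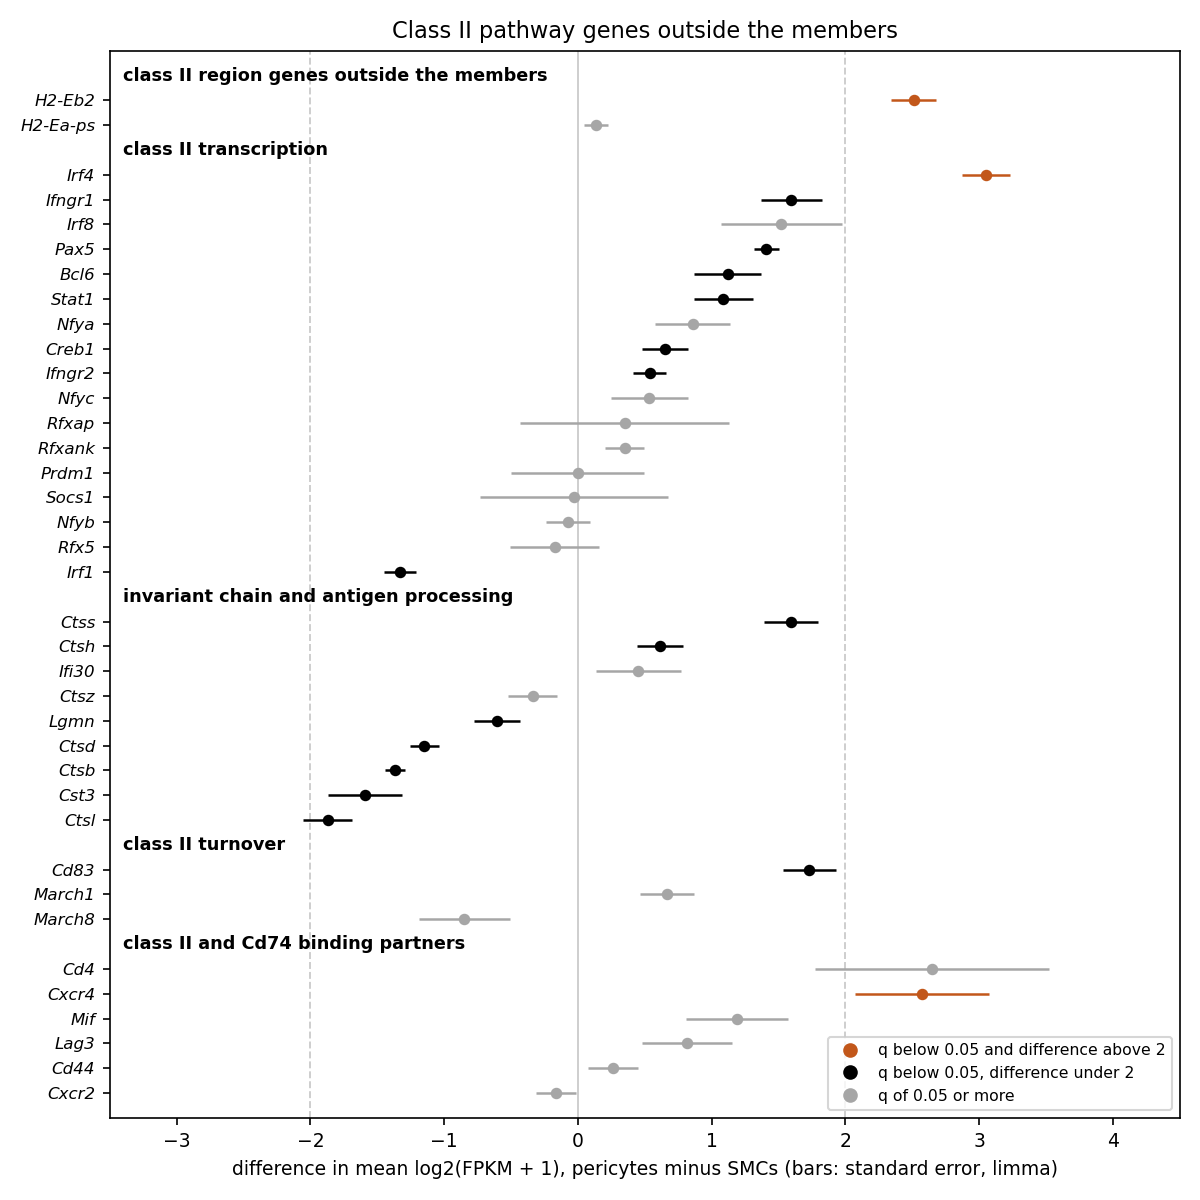
Difference in mean log2(FPKM + 1) between pericytes and SMCs for the 37 pathway genes outside the members, by list, with the standard error from limma as bars and dashed lines at a log2 fold change of 2 in either direction. Orange points (H2-Eb2, Irf4 and Cxcr4) passed the q value and fold thresholds, black points passed the q value of 0.05 only, and grey points had a q value of 0.05 or more.

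Genes most like H2-Eb1 and Ciita were ranked by Pearson's r of log2(FPKM + 1) over the 8 libraries among 13602 genes whose mean was 1 FPKM or more. The libraries fall into 2 groups that these genes also separate, so r is a description of likeness with no test. For H2-Eb1 the closest were Spns3 (r = 0.996), Got1 (r = 0.994), Napsa (r = 0.993), Cd52 (r = 0.992) and Kynu (r = 0.992). For Ciita they were Mthfd1l (r = 0.998), Fam169b (r = 0.998), Snap29 (r = 0.998), Sash3 (r = 0.998) and Bank1 (r = 0.997). Cd52, a lymphocyte surface protein, was the most abundant of these 10 genes, with 1618, 4101, 1853 and 2151 FPKM in pericyte libraries 1 to 4 and 98.9 to 190 FPKM in SMCs. Bank1, a B cell scaffold protein, had 72.7, 35.8, 59.1 and 56.6 FPKM in pericyte libraries 1 to 4 and 0.761 to 1.76 FPKM in SMCs.

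Markers of other cell types differed between the groups, although the gate left out CD45+ cells and, by the study's text and methods, CD31+ cells. The B cell list, 10 symbols in 11 rows, summed to 963 to 2168 FPKM in pericytes but to 70.1 to 105 FPKM in SMCs, with 9 rows higher in every pericyte library and 8 called by limma. Its 2 most abundant genes were Cd79a, with 671, 1145, 478 and 415 FPKM in pericyte libraries 1 to 4 and 4.08 to 15.5 FPKM in SMCs, and Cd79b, with 323, 549, 158 and 156 FPKM in pericytes and 3.24 to 10.8 FPKM in SMCs. Both encode signalling chains of the B cell receptor. Pax5 was listed at 0 in SMC library 4 and Ebf1 overlapped between the groups.

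The dendritic cell list summed to 166 to 364 FPKM in pericytes and 29.2 to 65.2 FPKM in SMCs, with 5 of 8 markers higher in every pericyte library and 4 called. Siglech, a marker of plasmacytoid dendritic cells, had 80.2 to 142 FPKM in pericytes and 4.08 to 18.4 FPKM in SMCs, and Cd209a had 52.5 to 135 FPKM and 8.82 to 29.2 FPKM. Zbtb46, Clec9a and Batf3 of the same list overlapped between the groups, and Xcr1 did not overlap but was not called. The T cell list summed to 1248 to 2047 FPKM in pericytes and 21.3 to 32.5 FPKM in SMCs, with all 6 markers higher in every pericyte library and all 6 called. Its leading genes were Cd3g, at 373 to 701 FPKM in pericytes, and Cd2, at 336 to 533 FPKM. Of 12 genes used by every cell, 7 were also higher in every pericyte library and 0 in every SMC library. Their median log2 difference was 0.65, and 0 were called. The 7 members that were higher in pericytes thus had the direction of the B cell, dendritic cell and T cell marker sums, though not of every B cell or dendritic cell marker. The part of these cells in the members' values was not tested.

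The macrophage list summed to 889 to 1814 FPKM in pericytes and 1389 to 2076 FPKM in SMCs, so the sums overlapped, but 6 of 10 markers were higher in every SMC library and 4 were called, Mrc1, C1qa, C1qb and C1qc. Lyz2, its most abundant gene, overlapped between the groups at 656 to 1640 FPKM and 778 to 1317 FPKM. C1qb, a complement subunit made by tissue macrophages, had 13.0 to 68.0 FPKM in pericytes and 199 to 261 FPKM in SMCs. The endothelial list summed to 62.6 to 133 FPKM in pericytes and 370 to 1049 FPKM in SMCs, with 7 of 8 markers higher in every SMC library, led by Pecam1, the gene of CD31 (25.0 to 59.7 FPKM and 102 to 301 FPKM) and Plvap (1.60 to 20.8 FPKM and 72.1 to 292 FPKM). The fibroblast list summed to 1104 to 1919 FPKM in pericytes and 4150 to 5799 FPKM in SMCs, with 6 of 8 markers higher in every SMC library, led by Lum (51.1 to 139 FPKM and 1131 to 1971 FPKM) and Ly6a (235 to 541 FPKM and 938 to 1373 FPKM). Dcn, of the same list, went the other way, as given above. Cd74, H2-Aa and H2-Ab1 thus had the direction of the endothelial, fibroblast and pericyte marker sums and of 6 of 10 macrophage markers. The part of any of these cells in the values of the 3 members was not tested.

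**Figure D5:**
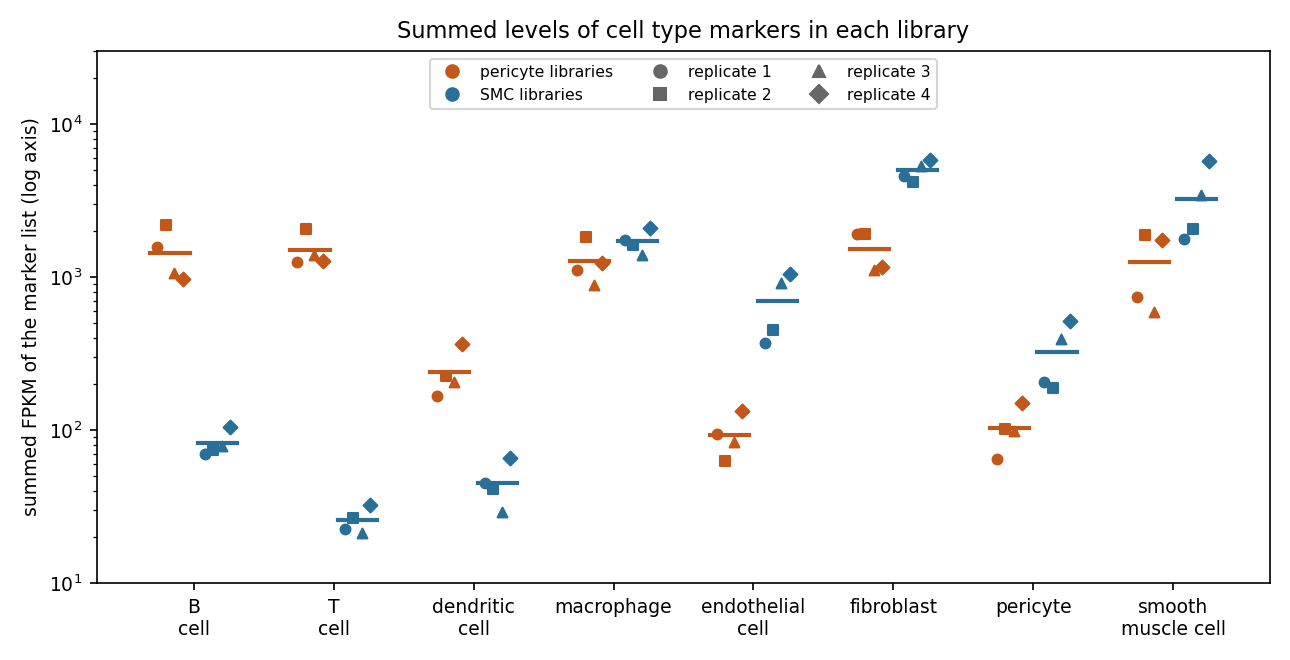
Summed FPKM of each cell type marker list (log axis) in the 4 pericyte libraries (orange) and 4 SMC libraries (blue), with a bar at the group mean. The B cell, T cell and dendritic cell sums are higher in every pericyte library, the endothelial, fibroblast and pericyte sums are higher in every SMC library, and the macrophage and smooth muscle sums overlap.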

How the data were processed

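Reads were mapped by the authors to NCBI Build 37 of the mouse with TopHat and Bowtie2, and they deposited FPKM for 37979 genes in 8 libraries, neither log transformed nor filtered. The program that computed FPKM and whether reads were assigned by strand are not given in the sources used here. FPKM are not counts, so depth is unknown and no counting error is given. The 10565 genes listed at 0 in all 8 libraries were left out.

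Values were taken as log2(FPKM + 1) and fitted with limma 3.58.1 in R 4.3.3 over the other 27414 genes, with Benjamini-Hochberg adjustment (q value). As in the study, a log2 fold change above 2 with a q value below 0.05 was called. The 4 libraries of a group are labelled as separate samples, and all 8 libraries of both groups carry the same batch label. Gene positions came from GENCODE M1 and promoter windows from RefSeq (GRCm38.p6), and the builds were not mixed.

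The members and lists were chosen with earlier results of these data known. All members are given in every library. Pathway genes are named if called, or else up to 3 per list by absolute log2 difference. Genes listed at 0 in 1 group are named at 100 FPKM or more in every library of the other, and likeness names the 5 highest correlations. Marker lists are given by sums, counts and their 2 most abundant genes.

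The alternatives tried were 0.1 as the pseudocount, only genes at 1 FPKM or more in 4 or more libraries, TPM (a common sum), median-ratio and quantile scaling, a replicate block, and leaving out each library in turn. Flow cytometry data were not analysed here.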

Additional observations from a re-analysis of the deposited data

Results flagged for a closer look

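In 81 groups of 4 libraries, the highest or lowest library was compared with the rest, and 10 stood apart by a share of their group's range above Dixon's 95% value, where chance gives about 1 in 20. Among ratios of members, H2-DMb2 over H2-DMb1 was 0.406 in SMC library 2 against 0.222 to 0.237 in the other SMC libraries. H2-Eb1 over Ciita was 1669.5 in SMC library 3, the SMC library with the lowest Ciita, against 447 to 608 in the others. H2-DMa over the sum of H2-DMb1 and H2-DMb2 was 1.0005 in SMC library 1 against 0.644 to 0.694 in the others. The second Ciita row had 0.262 FPKM in pericyte library 3 against 0 to 0.0338 FPKM in the other pericyte libraries.

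Among pathway genes, Mif had 1904 FPKM in pericyte library 2, the library with the highest summed FPKM, against 587 to 681 FPKM in the other pericyte libraries. Ifngr1 had 836 FPKM in pericyte library 3 against 621 to 653 FPKM in the others. Rfxank had 7.09 FPKM in pericyte library 3 against 5.72 to 5.90 FPKM in the others. Ctss had 168 FPKM in SMC library 4 against 95.3 to 105 FPKM in the others. H2-Ea-ps was listed at 0 in pericyte library 4 against 0.177 to 0.212 FPKM in the others, and had 0.174 FPKM in SMC library 2 where the other SMC libraries were listed at 0.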

How the results depend on the processing

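A pseudocount of 0.1 in place of 1 gave 1328 genes called higher in pericytes and 1421 in SMCs, against 888 and 728, and a median log2 difference of 4.37 over the 7 members with values in both groups, with Ciita at 4.69. Pathway genes called higher in SMCs numbered 1 with a common sum (Ctsl) and 2 with quantile scaling (Ctsl and Cst3). Of 98 values of single members under an alternative, 97 moved by less than 1 SD, and none changed sign. Of 334 values of the pathway genes named, 324 kept their sign and call, and 7 became calls (Pax5, Cd4, Ctsl or Cst3). The other 3 were uncalled differences that changed sign without 1 library. Over the libraries left out in turn, Rfx5 ranged from -0.35 to 0.13 (without pericyte library 2), Nfyb from -0.17 to 0.077 (without pericyte library 4) and Rfxap from -0.0079 (without SMC library 4) to 1.07. The q value alone crossed 0.05, with no change of call, in 24 values, downward for Irf8 (5), Mif (4), March1 (3) and Nfya (2) and upward for Creb1 (10). Leaving out each library in turn gave 845 to 885 genes higher in pericytes, 607 to 774 in SMCs, 3 to 4 pathway genes higher in pericytes, 0 in SMCs, and a member median of 3.27 to 3.52. With the replicate block there were 881, 739, 4 and 0 calls in the same order, Cd4 among them (limma q = 0.0317, Benjamini-Hochberg), and a member median of 3.42. The limma q value of Irf8 was then 0.00584 (Benjamini-Hochberg). The labels do not say that a number marks a shared animal, litter or day, so the numbers were not taken as pairs. Same-numbered libraries correlated at 0.0794 to 0.474 in their deviations across 13612 genes. All 4 correlations were positive, and 5 of 8 libraries were closest to their own number. These values do not show that same-numbered libraries were unrelated, so the fit with the replicate block is given beside the main one. The number of reads behind low values, such as Ciita in SMCs, is unknown.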
